A study of Mus musculus with 40 samples.

Results

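The cortical transcriptome 30 min after a closed head injury (CHI) was set against that 24 h after injury, with mice given 1, 3 or 5 injuries pooled. All libraries collected at 30 min after 1xCHI, 3xCHI and 5xCHI entered (n = 9, 3 per number of injuries), together with all libraries collected at 24 h after the same numbers of injuries (n = 12, 4 per number), so that 21 of the 40 samples of the series were used. The number of injuries was a block in the model, and the question asked of each gene was whether its level differed between the early and the late time after the last injury. The mice were 3xTg-AD females of 2 to 4 months on a C57BL/6J background, and bulk RNA was taken from their somatomotor cortex on the left side. These mice are a triple transgenic model of Alzheimer's disease in which neurons express human APP and MAPT transgenes. Injuries were given once daily under isoflurane by a weight dropped onto the intact skull. Mice at 30 min had therefore been anesthetized for injury shortly before collection and mice at 24 h a day before it. All mice were also killed under isoflurane. Time after impact and time after the anesthesia given for injury cannot be told apart between these groups. Sham-injured mice (n = 4) received anesthesia alone and were treated by the study as a single group over all anesthesia schedules. The libraries at 4 h (n = 8, without sample 30) and the sham-injured mice give background levels below.

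Most genes that lead this comparison belong to the activity-regulated program described in neurons, and their cell source was not measured in this bulk tissue. Calcium entry and MAPK signaling act on factors already present in the nucleus, such as CREB and SRF, and switch on immediate early genes within minutes and without new protein synthesis. Many of these genes encode transcription factors (the FOS, EGR and NR4A families), others encode effectors that act at synapses or feed back on kinases, and their transcripts are typically short-lived. They are widely used in cortex as markers of recently active or injured tissue.

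Summed counts ranged from 15926014 to 24569527 at 30 min and from 16976471 to 26425877 at 24 h. Mitochondrial transcripts took 6.29 to 10.3 percent of the counts at 30 min and 5.87 to 8.41 percent at 24 h. Both times were spread unevenly over the sample numbers: 6 of 9 samples at 30 min and 5 of 12 at 24 h had numbers from 1 to 18, and neither range of numbers is named as a batch by the study. The human MAPT feature had 128 to 1007 counts in the 21 samples, whereas the human APP feature had 0 to 1, and whether reads of that transgene fell to the mouse gene was not tested. All 12 neuronal markers listed passed the filter on low counts. Their summed level was 7012 to 8294 CPM (count per library total, not corrected for transcript length) at 30 min and 5627 to 8349 CPM at 24 h. The libraries thus carried the transcripts that the tissue label calls for. CPM of single genes were also scaled by TMM factors, whereas summed levels of lists were not. 

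Of 15224 features tested, 11 differed between 30 min and 24 h at an adjusted p under 0.05 (0.0723%). Higher at 30 min were 10 (0.0657%), namely the transcription factor genes Fosb, Fos, Egr2, Egr4 and Nr4a1, the effector genes Arl4d, Trib1 and Ccn1, and the noncoding transcripts 1700016P03Rik and Gm17501. Lower at 30 min was 1 (0.00657%), the sphingosine-1-phosphate phosphatase gene Sgpp1. At an unadjusted p under 0.05, 893 features were higher (5.87%) and 609 lower (4.00%), or 1502 in either direction (9.87%). The 11 p-values, adjusted by Benjamini-Hochberg after the quasi-likelihood test of edgeR, lay between 0.0312 and 0.0328, close to the threshold. The number of called features depended on single libraries: it was 0 when any 1 of 13 of the 21 samples was left out (samples 8, 13, 14 and 22 at 30 min and samples 2, 12, 18, 23, 28, 33, 34, 37 and 38 at 24 h), 3 without sample 17, 4 without sample 4, 18 without sample 31 and 42 without sample 27. All 11 genes kept their direction in every one of these fits. The count also varied with the model: it was 46 by DESeq2, 2602 by limma voom with sample quality weights and 11 by the robust quasi-likelihood test, and it was 0 in edgeR with a term for samples 1 to 18 (1120 features at an unadjusted p under 0.05) or with the sample number as covariate (998 features).

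**Figure D1:**
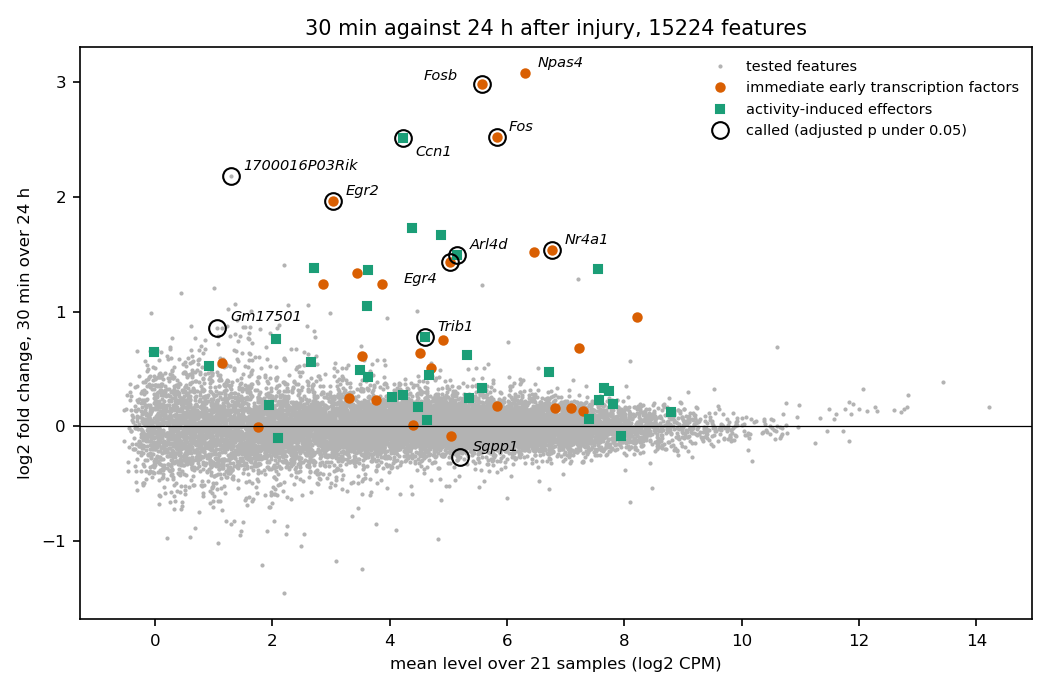
Difference between 30 min and 24 h (log2 fold change, vertical axis) against the mean level over the 21 samples (log2 CPM, horizontal axis) for the 15224 features tested. Each point is a feature, with immediate early transcription factors in orange, activity-induced effectors in green and the 11 called features ringed. The 10 ringed features above 0 run from 0.78 (Trib1) to 2.99 (Fosb), and Npas4 lies highest at 3.08 without being called.

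For the 10 genes called higher, a promoter sequence was at hand from RefSeq (GRCm38.p6) for 8, all but Trib1 and 1700016P03Rik. The 250 bases before the annotated start were searched on both strands for the full cyclic AMP response element TGACGTCA, for its core TGACG, for the AP-1 site (TGACTCA or TGAGTCA), for the CArG box of SRF and for the EGR site (GCGTGGGCG or GCGGGGGCG). The core TGACG, which the full element also contains, was present before at least 1 start of 8 of 8 genes, against 17.7% of 32817 promoter windows of the same length. Egr2 has 5 annotated starts, of which 3 held the core, and the other genes have 1 start each. The full element was found only before Arl4d among the 8 (1.55% of all windows), a CArG box only before Egr2 (1.47%), EGR sites before Fosb and Nr4a1 (3.06%), and an AP-1 site before none of them (4.46%). These matches describe letters in a short window. Windows of 6 of these genes are given 5′ to 3′ on the strand of the gene, ending at the base before the start, to show the cores that genes moving together hold at different distances, with all matches in capitals (CGTCA is the core TGACG on the opposite strand).
Fosb, chr7:19310046-19310295 (minus strand): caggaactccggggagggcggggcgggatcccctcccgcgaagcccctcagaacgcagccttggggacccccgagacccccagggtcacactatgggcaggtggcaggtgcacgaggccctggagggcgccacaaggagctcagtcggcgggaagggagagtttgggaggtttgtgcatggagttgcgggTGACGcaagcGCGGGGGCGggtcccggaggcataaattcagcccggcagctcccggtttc
Fos, chr12:85473640-85473889 (+ strand): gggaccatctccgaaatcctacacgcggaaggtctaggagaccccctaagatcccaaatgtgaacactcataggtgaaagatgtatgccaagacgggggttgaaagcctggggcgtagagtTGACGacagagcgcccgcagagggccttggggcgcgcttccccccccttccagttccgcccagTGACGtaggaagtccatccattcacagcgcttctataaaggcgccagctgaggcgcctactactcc
Arl4d, chr11:101665291-101665540 (+ strand): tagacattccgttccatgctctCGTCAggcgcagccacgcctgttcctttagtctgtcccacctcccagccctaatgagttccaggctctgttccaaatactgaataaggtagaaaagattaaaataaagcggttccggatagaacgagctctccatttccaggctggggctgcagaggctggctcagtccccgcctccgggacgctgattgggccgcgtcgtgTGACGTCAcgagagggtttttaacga
Nr4a1, chr15:101266596-101266845 (+ strand): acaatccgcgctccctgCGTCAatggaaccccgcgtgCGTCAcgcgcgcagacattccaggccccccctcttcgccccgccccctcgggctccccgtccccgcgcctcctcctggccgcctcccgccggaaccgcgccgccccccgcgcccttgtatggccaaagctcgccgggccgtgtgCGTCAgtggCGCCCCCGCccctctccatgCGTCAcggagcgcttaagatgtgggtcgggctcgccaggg
Egr4, chr6:85513590-85513839 (minus strand): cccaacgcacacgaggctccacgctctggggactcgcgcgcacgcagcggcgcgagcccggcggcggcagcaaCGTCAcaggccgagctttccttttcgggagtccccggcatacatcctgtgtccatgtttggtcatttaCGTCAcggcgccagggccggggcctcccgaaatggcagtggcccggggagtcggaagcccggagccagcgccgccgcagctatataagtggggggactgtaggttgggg
Ccn1, chr3:145649986-145650235 (minus strand): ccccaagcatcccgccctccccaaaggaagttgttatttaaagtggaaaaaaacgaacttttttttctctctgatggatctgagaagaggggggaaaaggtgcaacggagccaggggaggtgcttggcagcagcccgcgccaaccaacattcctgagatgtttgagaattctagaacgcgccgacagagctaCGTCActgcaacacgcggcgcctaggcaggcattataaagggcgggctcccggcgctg
The core nearest to the start began 60 bases before it in Fosb, 66 in Fos, 23 in Arl4d, 40 in Nr4a1, 109 in Egr4 and 58 in Ccn1.

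Among the transcription factors, Fosb showed the largest called difference. FOSB pairs with JUN proteins in the AP-1 complex. Its level at 30 min was 61.1, 116 and 12.9 CPM after 1xCHI (samples 13, 14 and 27), 172, 24.3 and 227 CPM after 3xCHI (samples 4, 5 and 22) and 22.5, 208 and 19.1 CPM after 5xCHI (samples 7, 8 and 31). At 24 h the 12 samples lay between 7.81 and 28.0 CPM with a median of 9.86 CPM. Hence 5 of 9 early samples (4, 8, 13, 14 and 22) were above every late sample, and the other 4 overlapped with them. The fitted difference was 2.99 ± 0.47 (log2, SE), a 7.93-fold higher level at 30 min (edgeR adjusted p = 0.0312). Sham-injured mice had 7.97 to 21.9 CPM and mice at 4 h had 7.64 to 27.5 CPM.

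Fos, the founding AP-1 gene and a common marker of neuronal activation, followed the same samples. At 30 min it ranged from 14.3 to 278 CPM with a median of 76.7 CPM, against 9.50 to 43.8 CPM (median 15.9 CPM) at 24 h. Samples 4, 8, 13, 14 and 22 were again above every sample at 24 h, at 197, 215, 76.7, 111 and 278 CPM. The difference was 2.52 ± 0.46 (log2, SE), or 5.76-fold (edgeR adjusted p = 0.0328). Sham-injured samples held 18.3 to 73.6 CPM of Fos, and the highest of them (sample 20) was close to sample 13 at 30 min.

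Egr2 and Egr4 encode zinc finger factors of the early growth response family. Egr2 was at 3.84 to 34.5 CPM (median 14.9 CPM) at 30 min and 1.35 to 5.77 CPM (median 3.95 CPM) at 24 h, a difference of 1.96 ± 0.34 (log2, SE) or 3.89-fold, with 5 of 9 early samples above all late ones. Egr4 was at 21.9 to 97.0 CPM (median 54.5 CPM) at 30 min and 5.91 to 24.1 CPM (median 20.0 CPM) at 24 h, a difference of 1.43 ± 0.26, with 6 of 9 above all late ones. Both groups overlapped for each gene through the low samples at 30 min, which were samples 5, 7, 27 and 31 for Egr2. Nr4a1, an orphan nuclear receptor gene, reached 58.1 to 355 CPM (median 183 CPM) at 30 min against 26.2 to 90.9 CPM (median 58.1 CPM) at 24 h, a difference of 1.53 ± 0.27 (log2, SE). For Nr4a1, 6 of 9 early samples exceeded the highest late sample.

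The 3 called effectors have different roles. Arl4d encodes a small GTPase of the ARF family that acts on actin and membrane traffic. Its level was 21.2 to 118 CPM (median 51.6 CPM) at 30 min and 13.1 to 32.0 CPM (median 19.8 CPM) at 24 h. Of the 9 early samples, 7 were above all 12 late samples, and only samples 7 and 27 (30.9 and 21.2 CPM) lay within the late range. The difference was 1.50 ± 0.24 (log2, SE), a 2.82-fold higher level (edgeR adjusted p = 0.0312). Trib1, a pseudokinase that directs the ubiquitin ligase COP1, was at 19.9 to 48.5 CPM (median 30.5 CPM) against 12.8 to 25.8 CPM (median 17.9 CPM), a difference of 0.78 ± 0.14. It too had 7 of 9 early samples above all late ones, with samples 27 and 31 in the late range.

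Ccn1, also known as Cyr61, encodes a secreted matricellular protein that binds integrins. It ranged from 4.48 to 93.6 CPM (median 29.5 CPM) at 30 min and from 3.20 to 13.0 CPM (median 4.79 CPM) at 24 h, a difference of 2.52 ± 0.47 (log2, SE) or 5.73-fold. Its neighbor Gm17501 is a long intergenic noncoding RNA (chr3:145650312-145677580, + strand, GENCODE M21 on GRCm38) that is transcribed away from Ccn1 (chr3:145646976-145649981, minus strand). In RefSeq 91 bases lie between their starts. The 1 core TGACG found before each start is the same stretch, chr3:145650039-145650043, which is the capitalized site in the Ccn1 window above. Gm17501 had 1.72 to 4.09 CPM (median 2.82 CPM) at 30 min and 0.911 to 1.97 CPM (median 1.60 CPM) at 24 h, with 8 of 9 early samples above all late ones and sample 31 at 1.72 CPM within their range. The difference was 0.86 ± 0.16 (log2, SE). Gm17501 and 1700016P03Rik were named after their values were seen, since the rule for named genes left out predicted models.

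1700016P03Rik (chr11:75172560-75177633, + strand, GRCm38) is a noncoding transcript whose annotated span contains the hairpins Mir212 and Mir132. Both miRNAs are background examples of activity-regulated miRNAs in neurons, and their main mature forms share the seed, bases 2 to 8, shown here in capitals in the RefSeq mature sequences to mark what the pair has in common.
mmu-miR-132-3p, chr11:75173723-75173744 (+ strand): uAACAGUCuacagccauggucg
mmu-miR-212-3p, chr11:75173443-75173464 (+ strand): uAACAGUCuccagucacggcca
The host transcript was at 0.587 to 12.4 CPM (median 3.40 CPM) at 30 min and 0.233 to 1.63 CPM (median 0.857 CPM) at 24 h, and 6 of 9 early samples were above all late ones. Its difference of 2.18 ± 0.40 (log2, SE) corresponded to a 4.54-fold higher level. The mature miRNAs were not measured by these libraries. Ovca2 overlaps the same span on the other strand, with 13.2 to 18.1 CPM at 30 min and 11.8 to 22.1 CPM at 24 h (log2 difference 0.01, edgeR adjusted p = 0.958). Whether counting used strand is not given in the sources used here, so reads in the overlap cannot be assigned to either gene with certainty.

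Sgpp1, which encodes an enzyme that dephosphorylates sphingosine-1-phosphate, was the only called gene with a lower level at 30 min than at 24 h. It was at 28.3 to 36.9 CPM (median 33.8 CPM) at 30 min and at 36.3 to 43.5 CPM (median 40.1 CPM) at 24 h, and 8 of 9 early samples lay below all late ones, with sample 27 (36.9 CPM) as the exception. The difference was -0.27 ± 0.05 (log2, SE, edgeR adjusted p = 0.0328). Sham-injured mice had 35.0 to 40.5 CPM.

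**Figure D2:**
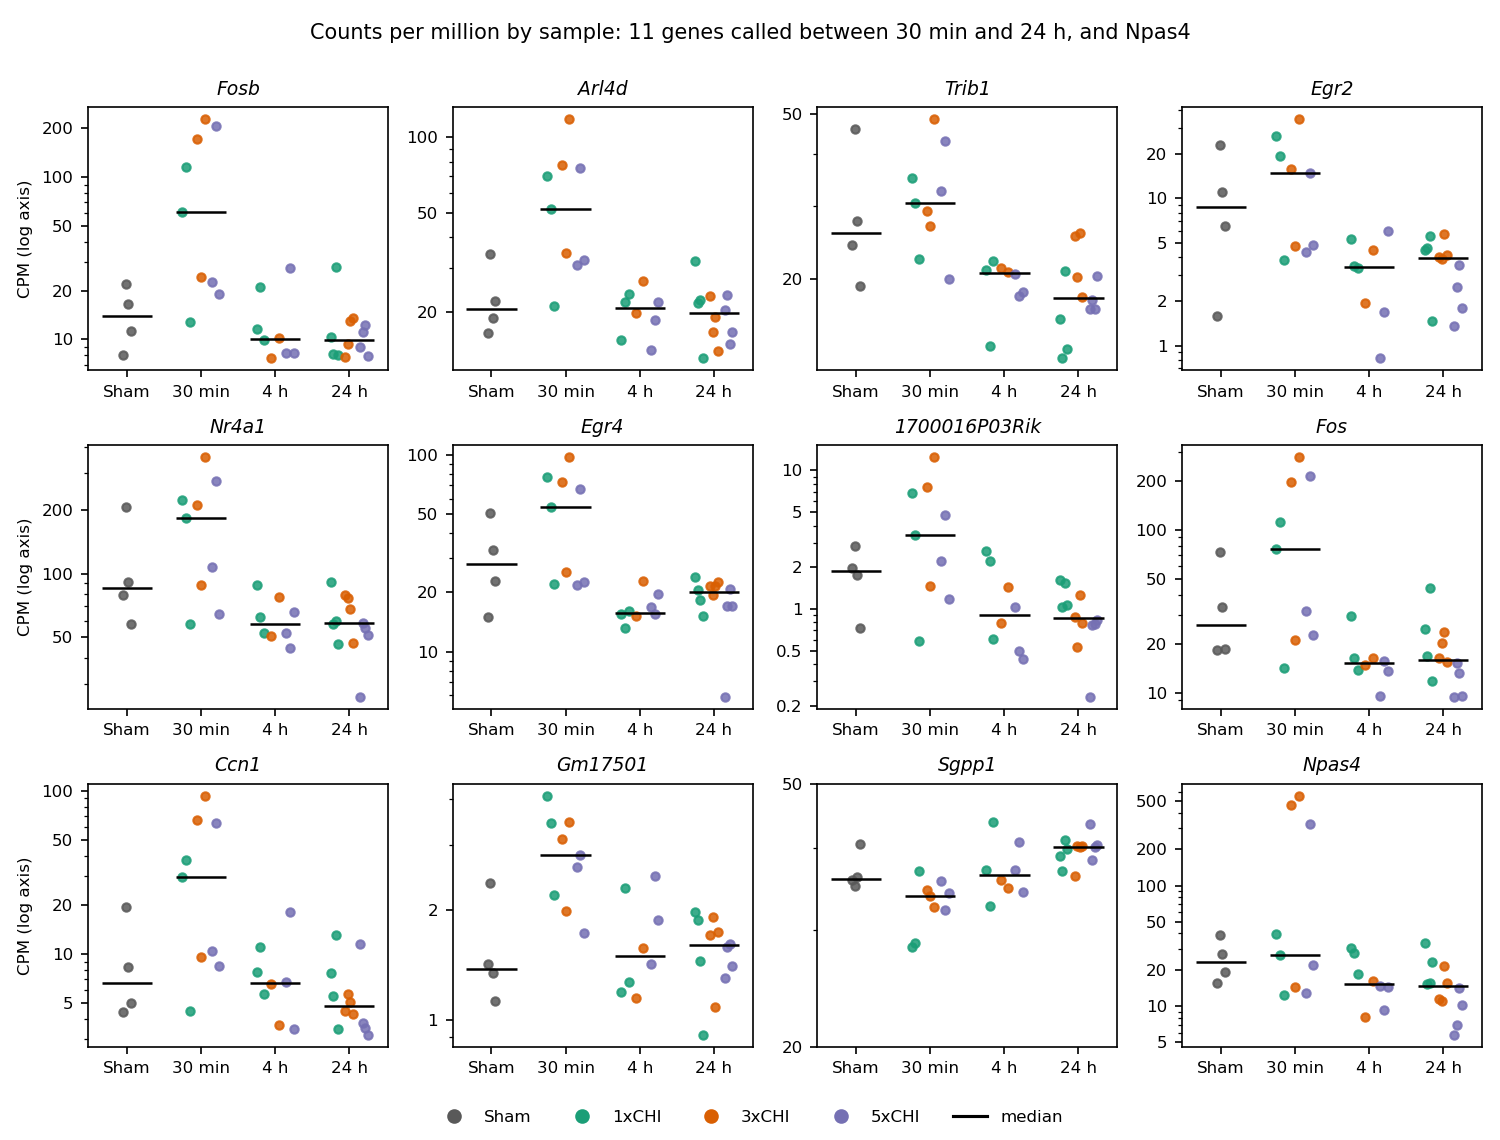
CPM of the 11 called genes and Npas4 in each sample (log vertical axes, which differ between panels) for sham-injured mice and, after 1xCHI (green), 3xCHI (orange) and 5xCHI (purple), for each of the 3 times. Points are samples and black bars are medians over the group. In the panels of genes called higher, 4 of 9 samples at 30 min or fewer overlap with the 24 h samples, and for Npas4 only 3 samples at 30 min stand far above the rest.

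The samples at 30 min differed from each other in the level of these genes. Samples 4, 8, 13, 14 and 22 were above the highest sample at 24 h in 10 of the 10 genes called higher. Samples 5 and 7 were above it in 4 of these genes, and samples 27 and 31 in 1. High and low samples occurred after each number of injuries: 13 and 14 against 27 after 1xCHI, 4 and 22 against 5 after 3xCHI, and 8 against 7 and 31 after 5xCHI. Of the 5 high samples, 4 had numbers from 1 to 18 and sample 22 did not. Within samples 1 to 18 (6 early, 5 late), the differences were 3.45 for Fosb, 2.74 for Fos, 1.24 for Arl4d and 2.48 for Ccn1 (log2), and within samples 19 to 40 (3 early, 7 late) they were 2.25, 1.97, 1.62 and 2.31. All 10 genes called higher were higher at 30 min within both ranges, with edgeR adjusted p-values of 0.520 to 0.612 and 0.353 to 0.380. A term for the range left no called feature (0 of 15224, 1120 at an unadjusted p under 0.05).

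Npas4, an immediate early transcription factor that in neurons depends on calcium, had the largest difference of all 15224 features, 3.08 ± 0.73 (log2, SE), but an adjusted p of 0.140 in edgeR's test. Its levels at 30 min were 39.9, 26.6 and 12.3 CPM after 1xCHI, 466, 14.5 and 556 CPM after 3xCHI, and 12.8, 322 and 22.1 CPM after 5xCHI. At 24 h it was at 5.77 to 33.5 CPM (median 14.6 CPM), in sham-injured mice at 15.5 to 38.6 CPM. Samples 4, 8 and 22 thus stood far above every late sample, while samples 13 and 14, high for Fos and Fosb, were close to the highest of them. Without the injury block the adjusted p of Npas4 was 0.0285 with edgeR, and with DESeq2 it was 0.000978.

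A few more genes separated the same early samples, and were picked after their values were seen. Btg2, an antiproliferative gene, was at 89.7, 136 and 102 CPM in samples 4, 22 and 8 and at 22.5 and 31.9 CPM in samples 13 and 14, against at most 27.1 CPM at 24 h. Klf4, a zinc finger factor expressed in vessels as well as other cells, was instead at 29.8 and 49.2 CPM in samples 13 and 14 and at 9.59, 10.3 and 18.7 CPM in samples 4, 22 and 8, against 3.64 to 11.9 CPM at 24 h. Nr4a3, a relative of Nr4a1, was likewise at 67.3 and 61.5 CPM in samples 13 and 14 and at 18.7, 28.1 and 22.7 CPM in samples 4, 22 and 8, against at most 33.1 CPM at 24 h. None of the 3 was called (edgeR adjusted p = 0.190, 0.0979 and 0.499).

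**Figure D3:**
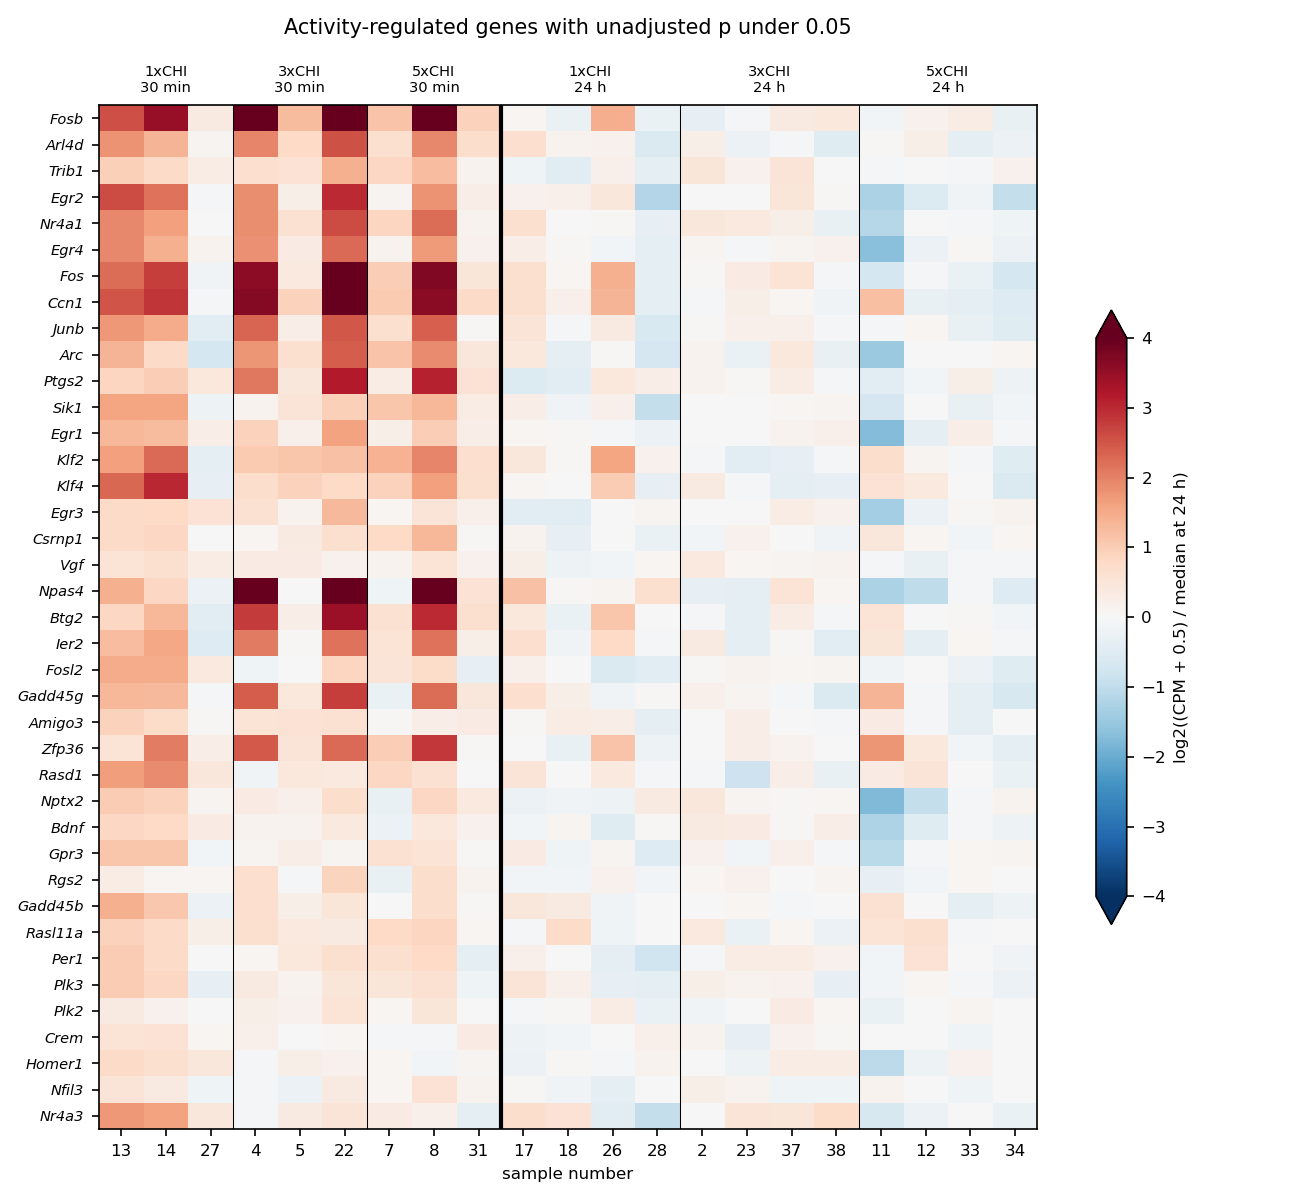
Level of each activity-regulated gene with an unadjusted p under 0.05 (rows, in order of p) in each of the 21 samples (columns, by number of injuries and time), as log2 of (CPM + 0.5) over the median at 24 h, with colors capped at 4 in either direction. Samples 4, 8, 13, 14 and 22 at 30 min are red for Fosb, Fos and Ccn1, samples 27 and 31 are close to the 24 h samples, and Npas4 is dark red only in samples 4, 8 and 22.

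Whether the difference depended on the number of injuries was tested as an interaction. No feature was called (0 of 15224; 280, or 1.84%, at an unadjusted p under 0.05), and DESeq2 called 2. The interaction p-values of the 11 called genes, before adjustment, were 0.231 to 0.952. For Fosb the difference was 2.20 ± 0.79 after 1xCHI, 3.68 ± 0.82 after 3xCHI and 3.04 ± 0.81 after 5xCHI (log2, SE), and for Egr2 it was 2.04 ± 0.61, 2.03 ± 0.61 and 1.79 ± 0.64. Npas4, which was not called, had differences of 0.27 ± 0.91 after 1xCHI, 4.52 ± 0.97 after 3xCHI and 3.69 ± 0.96 after 5xCHI, and an interaction p of 0.0129 before and 1.00 after adjustment with edgeR. Within 1 number of injuries, 3 samples stood against 4 and edgeR called 0 features after each, with 888 (5.83%), 520 (3.42%) and 301 (1.98%) at an unadjusted p under 0.05. DESeq2 called 11, 5 and 0. After 1xCHI the count of 0 became 43 without sample 27.

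**Figure D4:**
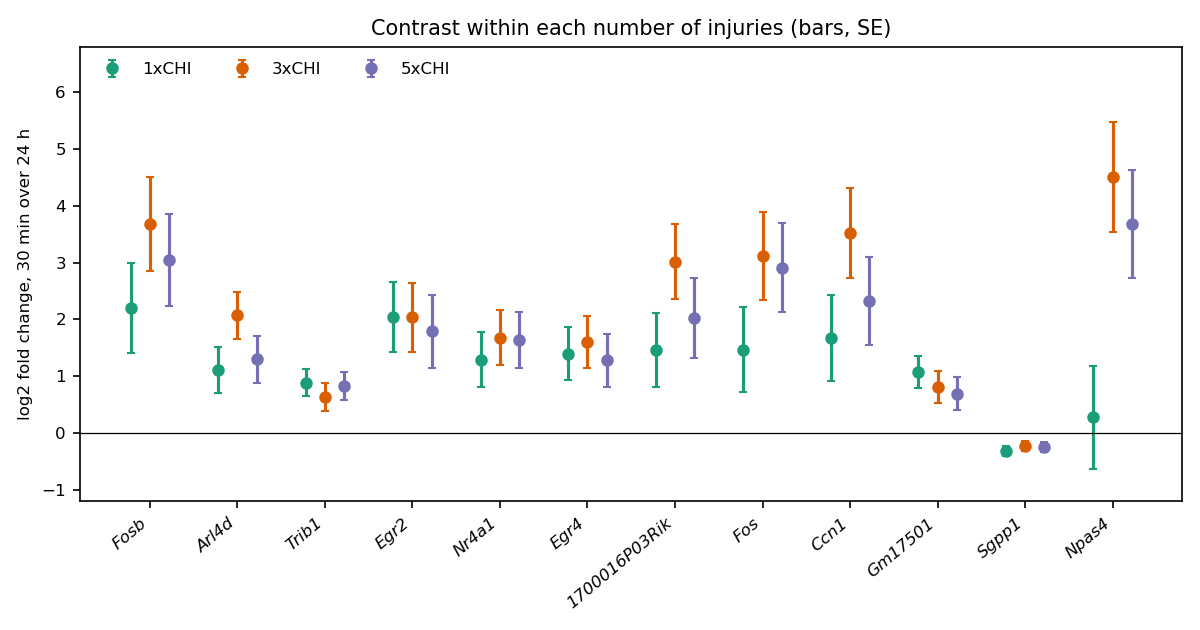
Difference between 30 min and 24 h (log2 fold change, vertical axis) within 1xCHI (green), 3xCHI (orange) and 5xCHI (purple) for the 11 called genes and Npas4. Points are fitted values and bars are SE. The 3 intervals overlap for genes such as Egr2 and Nr4a1, whereas Npas4 is at 0.27 after 1xCHI and at 4.52 and 3.69 after 3xCHI and 5xCHI.

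Sham-injured and 4 h samples place the 2 ends of the comparison. At 4 h the 10 genes called higher differed from 24 h by -0.15 to 0.33 (log2), with 8 samples against 12 and edgeR adjusted p-values of 0.993 or more (523 features, or 3.44%, at an unadjusted p under 0.05). Against sham-injured mice, all 10 had a positive fitted difference at 30 min and a negative one at 24 h. The 10 genes were called for a higher level at 30 min than at 24 h, so the order of these 2 differences was set by that choice. These 2 contrasts share the sham-injured samples, and neither called any feature (0 of 15224 each; 2371, or 15.6%, and 636, or 4.18%, at an unadjusted p under 0.05). For Fosb and Arl4d the fitted difference from sham-injured mice was larger at 30 min, at 2.64 ± 0.62 and 1.26 ± 0.33, than at 24 h, at -0.34 ± 0.53 and -0.23 ± 0.30 (log2, SE). Egr2 and Trib1 had the reverse balance, with 0.33 ± 0.61 and 0.12 ± 0.23 at 30 min and -1.63 ± 0.56 and -0.66 ± 0.21 at 24 h. Sham sample 20 was high for these genes, with 23.2 CPM of Egr2, 45.9 CPM of Trib1 and 207 CPM of Nr4a1 against 1.58 to 11.1, 19.2 to 27.6 and 57.6 to 91.1 CPM in the other 3. After 4xCHI at 24 h, a group outside this comparison, sample 25 was at 29.1 CPM of Egr2 and 240 CPM of Nr4a1, so a high level of these genes was not limited to 30 min after injury.

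Immediate early transcription factors had mostly higher levels at 30 min. Of 28 listed genes, 26 passed the filter and 5 were called higher, all of them described above. At an unadjusted p under 0.05, 17 were higher and 0 lower, against 5.87% and 4.00% of all features. The median difference over the 26 was 0.66, beside -0.01 over all features (log2), and 24 were positive. Leaving out any 1 of the 21 samples kept the median between 0.62 and 0.74 and the number at an unadjusted p under 0.05 between 15 and 20. In 11 of the 26, 5 or more of the 9 early samples were above all late ones (0.723% of all features). Next in order of p, and picked after their values were seen, were Junb, an AP-1 subunit gene, at 35.2 to 267 CPM (median 133 CPM) against 31.2 to 68.3 CPM (1.52 ± 0.30, edgeR adjusted p = 0.0505), and Egr1, which encodes another zinc finger factor, at 259 to 677 CPM against 66.8 to 265 CPM (0.95 ± 0.19, adjusted p = 0.0660). The 2 members that did not pass were Fosl1, with 0 to 11 counts at 30 min, and the stress-induced Atf3, with 11 to 275 counts at 30 min and 6 to 242 at 24 h.

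Activity-induced effectors likewise had mostly higher levels at 30 min, with 31 of 33 differences positive. All 33 genes of this list in the files passed the filter, 3 were called higher, and 22 were higher and 0 lower at an unadjusted p under 0.05, with a median difference of 0.45 (log2), and 21 to 24 were higher when any 1 sample was left out. Ptgs2, which encodes cyclooxygenase-2, was at 12.2 to 94.2 CPM (median 18.5 CPM) at 30 min and 6.62 to 13.5 CPM (median 9.95 CPM) at 24 h, and 7 of 9 early samples were above all late ones (1.73 ± 0.34, edgeR adjusted p = 0.0523). Arc, a postsynaptic gene whose mRNA travels to dendrites, was at 72.1 to 626 CPM (median 261 CPM) against 41.2 to 156 CPM, with 8 of 9 above (1.37 ± 0.27, edgeR adjusted p = 0.0523; named after its values were seen). The median of the activity-induced effectors was 0.48 with 24 higher within samples 1 to 18 and 0.24 with 13 higher within samples 19 to 40, and that of the immediate early transcription factors was 0.84 with 18 higher and 0.52 with 11 higher.

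Calls in these and all other lists are those of edgeR unless another tool is named. DESeq2 called 37 features higher (0.243%) and 9 lower (0.0591%), and its calls within the lists were all higher, namely 13 immediate early factors, 8 effectors, 4 MAPK feedback regulators, Nfkbiz of the NF-kB and STAT3 list (adjusted p = 0.0335), Apold1 of the hypoxia list (adjusted p = 0.00812) and Ptgs2, which the reactive astrocyte list shares with the effectors (adjusted p = 0.00147). Limma voom called 1357 features higher (8.91%) and 1245 lower (8.18%), and members of 23 of the 33 lists, among them 15 of 26 immediate early factors, 20 of 33 effectors, 6 of 14 MAPK feedback regulators, 11 of 19 glucocorticoid-responsive genes and 35 of 70 nuclear-encoded respiratory chain subunits as higher, and 8 of 35 glutamate and GABA receptors as lower.

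The medians of many of the 33 lists of genes were small: 15 had the same sign in all 21 fits without 1 sample and within both samples 1 to 18 and samples 19 to 40, and 18 turned sign in 1 or more of these fits. MAPK feedback regulators, the phosphatases and adaptors that damp the kinase cascade, had 0 of 14 called, 6 higher at an unadjusted p under 0.05 and a median of 0.19 (log2). The median of the MAPK feedback regulators was 0.30 with 8 higher within samples 1 to 18 and 0.07 with 3 higher within samples 19 to 40. The phosphatase gene Dusp1 was at 20.0 to 139 CPM against 20.3 to 42.8 CPM (1.24 ± 0.27, edgeR adjusted p = 0.0843) and the inhibitor gene Spry2 at 48.6 to 75.6 CPM against 41.8 to 60.9 CPM (0.34 ± 0.08, adjusted p = 0.110). Glucocorticoid-responsive genes, a readout of stress hormone, had 0 of 19 called, 6 higher at an unadjusted p under 0.05 and a median of 0.25, which was 0.08 without sample 27 and 0.38, with 11 members higher, without sample 11, 0.16 within samples 1 to 18 and 0.28 within samples 19 to 40. Their leading members were Tsc22d3, an anti-inflammatory leucine zipper gene, at 67.0 to 117 CPM against 52.3 to 98.3 CPM (0.39 ± 0.11, edgeR adjusted p = 0.409), and Errfi1, a feedback inhibitor of EGFR shared with the previous list, at 25.0 to 41.3 CPM against 24.5 to 33.1 CPM (0.27 ± 0.08, adjusted p = 0.448).

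In the clock list 0 of 19 were called, with 2 higher and 1 lower at an unadjusted p under 0.05. Per1, a clock gene that also responds to activity, was at 67.3 to 178 CPM against 50.7 to 132 CPM (0.47 ± 0.17, edgeR adjusted p = 0.486), and Rora, a nuclear receptor of the clock, had a difference of -0.25 ± 0.10. The median over the list was 0.03. Heat shock genes had 0 of 18 called and a median of 0.05, led by Dnajb1 at 0.18 ± 0.07 and Hspa8 at 0.11 ± 0.07, both of which encode cytosolic chaperones. The unfolded protein and integrated stress response had 0 of 19 called, 5 higher and 1 lower at an unadjusted p under 0.05, led by Ppp1r15a (0.33 ± 0.10) and Atf4 (0.21 ± 0.07), a phosphatase subunit and a factor of that response.

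The lists of cytokines and of NF-kB and STAT3 targets held no gene called by edgeR, and 1, Nfkbiz, called by DESeq2. Limma voom called 1 cytokine or chemokine higher, and 4 NF-kB and STAT3 targets higher and 2 lower. Of 25 cytokines and chemokines, 11 passed the filter and 0 were called or reached an unadjusted p under 0.05, with a median of -0.02 (log2), Tgfb2 at -0.16 ± 0.10 and Il17d at 0.17 ± 0.11. Among the 14 that did not pass were Il1b, with 6 to 40 counts at 30 min and 1 to 19 at 24 h, Tnf, with 0 to 4 and 0 to 5, and Il6, with 0 to 6 and 0 to 7, and these were not tested. NF-kB and STAT3 feedback targets had 0 of 17 called, 2 higher and 2 lower at an unadjusted p under 0.05, and a median of -0.01, which became 5 higher and 0.05 without sample 11. The inhibitors Nfkbiz, at 6.51 to 12.7 CPM against 3.70 to 9.81 CPM (0.61 ± 0.15, edgeR adjusted p = 0.201, DESeq2 adjusted p = 0.0335), and Nfkbia (0.55 ± 0.20, adjusted p = 0.486) led it.

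Interferon-responsive genes mostly had lower levels at 30 min, with 19 of 21 differences negative, 0 of 21 called, 0 higher and 7 lower at an unadjusted p under 0.05 (background 4.00%) and a median of -0.31 (log2). Parp14, an ADP-ribosyltransferase gene, was at 1.25 to 4.06 CPM at 30 min and 2.26 to 4.35 CPM at 24 h (-0.36 ± 0.16). Microglial activation genes had 0 of 20 called and 1 lower at an unadjusted p under 0.05, and all 20 fitted differences were negative, with a median of -0.24. The microglial activation genes had 10 lower at that level with the sample number as covariate (median -0.44), 9 with 1 surrogate variable (a covariate that sva estimated from the counts) and 4 with a term for samples 1 to 18, and their median was -0.49 within samples 1 to 18 and -0.06 within samples 19 to 40. Their leading genes, the lysozyme gene Lyz2 (-1.17 ± 0.48) and the glycoprotein gene Gpnmb (-1.46 ± 0.73), were at 2.58 to 60.6 and 0.709 to 66.0 CPM at 24 h with medians of 6.21 and 1.47 CPM, and the highest value of both came from sample 11 (5xCHI). Without sample 11 the differences of Lyz2 and Gpnmb were -0.50 and -0.16, the median of the microglial activation list was 0.00, that of the interferon list -0.24 with 3 lower at an unadjusted p under 0.05 (1 to 10 when any 1 sample was left out), and that of the astrocyte list, given next, 0.17. Reactive astrocyte genes had 0 of 17 called by edgeR (1, Ptgs2, with DESeq2, with no filter beyond 1 count, without the injury block, with 1 surrogate variable and in the fits of 39 and 40 samples) and a median of -0.14, or -0.31 within samples 1 to 18 and -0.11 within samples 19 to 40, with Ptgs2 (above) and the sphingosine-1-phosphate receptor gene S1pr3 (-0.31 ± 0.13) in the lead. Markers of resting microglia were also all negative, 10 of 10 with a median of -0.19 and 1 lower at an unadjusted p under 0.05, and their summed level was 277 to 422 CPM at 30 min and 293 to 808 CPM at 24 h. Their median was -0.09 without sample 11. In bulk tissue, fewer cells of a type and less RNA per cell cannot be told apart.

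Metabolic and structural lists held no gene called by edgeR, and 1, Apold1, called by DESeq2. All 13 transcripts of the mitochondrial genome had positive differences (median 0.14, log2), as did 63 of 70 nuclear-encoded respiratory chain subunits (median 0.14), against 47.4% of all features. Their leading members were mt-Co1 (0.16 ± 0.07), mt-Cytb (0.16 ± 0.08), Atp5l (0.19 ± 0.09) and Cox7b (0.15 ± 0.08), subunits of the oxidative phosphorylation complexes, with 1 mitochondrial and 0 nuclear members at an unadjusted p under 0.05. These counts were 9 of 13 and 34 of 70 without sample 27, 3 and 36 without sample 11, and 0 of both without sample 13, where the medians were 0.10 (mitochondrial) and 0.09 (nuclear). Within samples 1 to 18 the medians of the mitochondrial genome transcripts and the nuclear-encoded respiratory chain subunits were 0.05 and 0.00063, against 0.17 and 0.15 within samples 19 to 40, and the nuclear median was 0.07 with a term for samples 1 to 18. Mitochondrial transcripts took 10.3 and 10.1 percent of the counts in samples 13 and 14 and at most 8.47 percent in the other 19 samples, and the part of these samples in the differences was not tested beyond these values. Hypoxia and angiogenic genes had 5 higher and 1 lower of 20 at that level, led by the endothelial early gene Apold1 (1.06 ± 0.25, edgeR adjusted p = 0.127, DESeq2 adjusted p = 0.00812) and the kinase gene Pdk1 (-0.20 ± 0.07), and a median of -0.01. Cholesterol synthesis (1 higher of 23, median -0.02, Pmvk 0.24 ± 0.11), metallothionein and Nrf2 genes (3 lower of 17, median -0.07, Cat -0.13 ± 0.05 and Slc7a11 -0.38 ± 0.15), and matrix remodelling (2 lower of 21, median -0.09, Mmp14 -0.34 ± 0.15 and Timp2 -0.13 ± 0.06) had medians within 0.10 of 0. Without sample 11, the metallothionein and Nrf2 genes had 4 higher and 3 lower and a median of 0.02, and matrix remodelling had 1 higher and 0 lower. Of 35 glutamate and GABA receptors, 28 had negative differences and 1 was lower at an unadjusted p under 0.05 (median -0.08, Grm3 -0.32 ± 0.15 and Gabrg3 -0.15 ± 0.07). That count was 8 without sample 27 and 7 without sample 11, and the median of the glutamate and GABA receptors was 0.06 within samples 1 to 18 and -0.12 within samples 19 to 40.

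**Figure D5:**
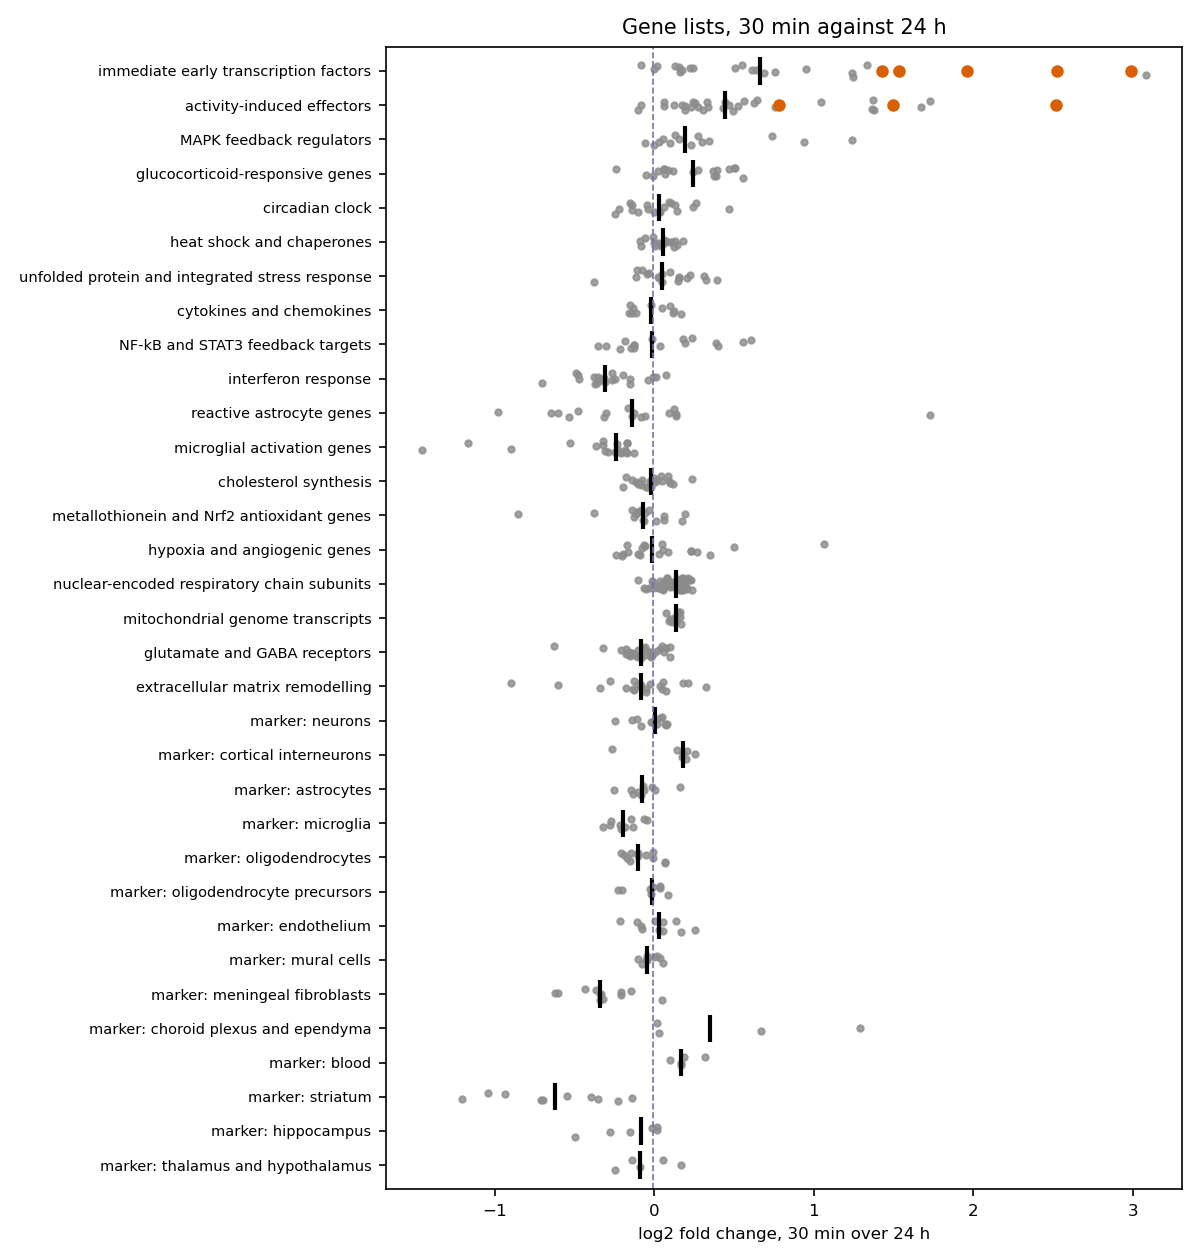
Difference between 30 min and 24 h (log2 fold change, horizontal axis) of the members of each gene list that passed the filter (rows). Points are genes, orange points are called genes, black bars are list medians and the dashed line is the median of all features. Immediate early factors and effectors extend furthest to the right, with medians of 0.66 and 0.45, and the interferon, meningeal fibroblast and striatal lists lie to the left at -0.31, -0.34 and -0.62.

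Markers of cell types and of neighboring tissue made up 14 lists, and 0 of their members were called by edgeR or DESeq2. Limma voom called 3 interneuron markers higher and 1 lower, 2 endothelial and 1 astrocyte marker higher, and 2 neuronal and 1 thalamic marker lower. Medians (log2) were 0.00 for neurons (Gad2 -0.25 ± 0.14, Slc32a1 -0.14 ± 0.09), 0.18 for interneurons (3 of 7 higher at an unadjusted p under 0.05, Vip 0.21 ± 0.06, Lhx6 0.20 ± 0.07), -0.08 for astrocytes (Aqp4 -0.25 ± 0.11, S100b 0.16 ± 0.11), -0.10 for oligodendrocytes (Ermn -0.15 ± 0.11, Aspa -0.19 ± 0.14), -0.01 for their precursors (Pdgfra -0.23 ± 0.11, Sox10 -0.20 ± 0.14), 0.03 for endothelium (Itm2a -0.22 ± 0.10, Ly6c1 0.26 ± 0.14) and -0.05 for mural cells (Pdgfrb -0.10 ± 0.06, Rgs5 0.06 ± 0.10). Without sample 11 the median turned to 0.01 for astrocytes, 0.04 for oligodendrocytes and 0.06 for their precursors. The leading microglial markers were Sall1 (-0.21 ± 0.09) and Csf1r (-0.22 ± 0.11). Meningeal fibroblast markers had a median of -0.34, with Islr (-0.37 ± 0.16) and Lum (-0.63 ± 0.29) as 2 of 12 lower at that level (0 to 4 when any 1 sample was left out), and the median was -0.21 within samples 1 to 18 and -0.49 within samples 19 to 40. All 10 striatal markers were negative (median -0.62, Syndig1l -0.94 ± 0.48, Adora2a -1.04 ± 0.58), with a summed level of 162 to 277 CPM at 30 min, 134 to 841 CPM at 24 h and 153 to 760 CPM in sham-injured mice, and the median was -0.30 without sample 26. The striatal median was -0.12 within samples 1 to 18, -0.67 within samples 19 to 40 and -0.30 with a term for samples 1 to 18. Ttr, the transthyretin of choroid plexus, was at 2421 CPM in sample 31 at 30 min and at 383 CPM in sample 12 at 24 h but at most 39.5 CPM in the other 19 samples (1.29 ± 0.87), and Kl, another choroid plexus gene, followed (0.67 ± 0.49). The median of the choroid plexus list was 0.35 with and -0.13 without sample 31, and it was -0.38 within samples 1 to 18 and 0.97 within samples 19 to 40. Hippocampal (Prox1 -0.28 ± 0.10, Lct -0.50 ± 0.29), thalamic (Rora, above, and Tcf7l2 0.17 ± 0.15) and blood markers (Hbb-bt 0.32 ± 0.30, Hbb-bs 0.18 ± 0.28) had medians of -0.08, -0.09 and 0.17. The median of the blood markers was -0.22 within samples 1 to 18, 0.21 within samples 19 to 40, -0.0015 with 1 surrogate variable and 0.03 without sample 13. Sample 31 was also among the low ones at 30 min for Fosb and Fos, at 19.1 and 22.5 CPM, and the part of neighboring tissue in these results was not tested.

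One feature showed no overlap between the times. Gm11627, a predicted gene named after its values were seen, was at 2.26 to 3.58 CPM in all 9 samples at 30 min and 1.17 to 2.23 CPM in all 12 at 24 h (1 of 15224, 0.00657%), and no feature lay lower in all 9. Its difference was 0.59 ± 0.12 (log2, SE, edgeR adjusted p = 0.0683). Unlike the early genes it was also the only feature called between 4 h and 24 h (0.85, edgeR adjusted p = 0.00227, 0.00657%), at 2.62 to 4.52 CPM in the 8 samples at 4 h.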

How the data were processed

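Gene-level RNA-seq values were available for 40 samples of mouse somatomotor cortex. The deposited values are expected counts per gene, which the authors obtained from reads sequenced and aligned by a service provider, with mm10 named in the submitters' processing notes. The column names have the form that salmon gives its output. The versions and whether strand was used are not given in the sources used here. Of the values, 4.46 percent were not whole, and all were rounded to whole numbers before testing. Samples were grouped by the injury and time in their labels. Sample 30 (3xCHI, 4 h), which is in neither group compared, was left out, as in earlier processing of these data. The study also left out 1 sample, whose number is not given in the sources used here. A feature was tested if at most 4 of the 39 remaining samples fell short of 10 counts, so that 15224 of the 55539 features in the files were tested. The labels do not say whether samples of a group came from separate cages or days, and p-values measure the spread between these samples.

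Counts were fitted with edgeR 4.0.16 in R 4.3.3 (TMM factors, quasi-likelihood test) on the 21 samples at 30 min and 24 h, with the number of injuries as a block and 17 residual degrees of freedom. Calls used a Benjamini-Hochberg adjusted p under 0.05. The interaction and the differences within each number of injuries came from a fit of the same samples with a mean per group. Contrasts with sham-injured and 4 h samples came from a fit of 39 samples, from which CPM of single genes were also taken. DESeq2 1.42.0, limma 3.58.1 (voom with quality weights) and sva 3.50.0 served for alternatives, beside other scalings, filters, sample sets and leaving out each sample. The pooled fit was tested on simulated counts of 15224 features. It called 100 percent of the genes simulated with a difference of 2 (log2) and 96 percent of those with 1, and it made 8 false calls.

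The comparison and the 33 gene lists were chosen with earlier results of these data known. Genes named were called genes that are not predicted models, of each list up to 4 called members or otherwise the 2 with the smallest p, and Fos, Fosb, Npas4, Ptgs2 and Arl4d. Some genes that this rule names are not reported here. Other genes are given as named after their values were seen. Gene positions came from GENCODE M21 on GRCm38, and promoter and miRNA sequences from RefSeq (GRCm38.p6). Older symbols of Ccn1 and Ccn2 in the effector list were matched to the names in the files. With totals of 15926014 to 26425877 counts in the 21 samples, features of a few counts were not testable.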

Additional observations from a re-analysis of the deposited data

Results flagged for a closer look

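Of 65 groups of samples tested over the genes described, 5 held a sample far from the others. Chance flags about 1 in 20 groups, or 3.25 here. The groups tested held 4 samples, except a pooled group of the samples at 30 min (n = 9). The groups at 30 min by number of injuries hold 3 samples each and were not tested separately. All 5 flagged samples were at 24 h. Fosb was at 28.0 CPM in sample 26 (1xCHI), the highest value at 24 h. Egr2 was at 5.77 CPM in sample 37 (3xCHI), also the highest value at 24 h. In sample 11 (5xCHI), Ccn1 was at 11.6 CPM and 1700016P03Rik at 0.233 CPM, the lowest of the late samples for the latter. Sgpp1 was at 36.3 CPM in sample 2 (3xCHI), the lowest value at 24 h. Leaving out sample 2 or sample 37 left no called feature in the pooled comparison, and leaving out sample 11 left 8.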

How the results depend on the processing

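The pooled comparison called 11 features. The count was 46 with DESeq2, 20 with no filter beyond 1 count, 22 with all 39 samples in 1 fit, 29 with all 40 samples, 22 with 1 surrogate variable and 2602 with limma voom with quality weights. It was 0 with a term for samples 1 to 18, with the sample number as covariate, in samples 1 to 18 alone and in samples 19 to 40 alone. The cause was not tested. Other scalings, filters, the robust test and the fit without the injury block gave 11 to 16. Leaving out 1 sample gave 0 to 42, with the libraries named beside the main result. The direction of the 11 genes was the same in each fit that tested them (1700016P03Rik was not tested with a minimum of 10 counts in all 21 samples), and each was called in 3 (Gm17501 and Sgpp1) to 8 (Fosb and Arl4d) of the 21 fits without 1 sample. The interaction called 0 features and 2 with DESeq2. Within 1xCHI the count of 0 became 1 with a term for samples 1 to 18 and 11 with DESeq2, and ranged from 0 to 43 when 1 sample was left out (43 without sample 27). Within 3xCHI it became 5 with DESeq2. Differences that turned sign, none of them called, were in samples 1 to 18 alone those of Grm3 (0.0352), Slc32a1 (0.0181), Ttr (-1.9007), Kl (-0.71), Hbb-bt (-0.0523) and Hbb-bs (-0.18), in samples 19 to 40 alone those of Rgs5 (-0.0027) and Tcf7l2 (-0.12), and with 1 surrogate variable that of Hbb-bs (-0.000389). When 1 sample was left out, Ttr ranged from -0.40 to 1.69 and Kl from -0.26 to 0.83, the lowest without sample 31. No paired analysis was possible because sample numbers are unique and no replicate number is shared between groups.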
